A study of Mus musculus with 8 samples.

Results

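Autophagy genes encode the proteins that build the autophagosome, the membrane sac that encloses part of the cytoplasm and delivers it to the lysosome for breakdown. A set of 36 of them was followed in mouse osteoblasts given parathyroid hormone (PTH). The set was defined by gene symbol, from the ULK kinase complex that starts the process to the receptors that bind its cargo, and each of the 36 symbols was found once among the 47706 rows of the count table. Osteoblasts, the bone-forming cells, were isolated from the skullcap (calvaria) of newborn mice, cultured through 7 days of differentiation and then given PTH (4 samples) or vehicle (4 samples) over 24 hours. PTH was an amino-terminal fragment of the human hormone, and both groups were serum-starved before treatment. The study's methods describe osteogenic medium, whereas the sample labels name adipogenic differentiation for both groups. The sample titles also begin with Con, which they do not explain, and the labels give no genotype, strain or age. Nothing states whether the 4 samples of a treatment came from separate cultures or litters, so p-values measure the spread between these samples, which may be technical.

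In autophagy, the ULK complex receives signals on nutrients and energy and activates a class III phosphatidylinositol 3-kinase (PI3-kinase), which marks the membrane from which an autophagosome grows. The lipid mark is read by WIPI proteins, ATG2 and ATG9 supply lipid, and a pair of ubiquitin-like conjugation systems attach proteins of the ATG8 family (LC3 and GABARAP) to the membrane, where cargo receptors such as p62 bind them. In bone, the process is known to take part in mineralization and in the survival of osteoblasts and osteocytes. PTH acts on osteoblasts through a receptor that raises cyclic AMP (cAMP) and activates protein kinase A.

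Expression is given in CPM, that is, counts scaled to a common library size by edgeR's TMM method. Total counts lay between 33605610 and 56090654 per sample, and the lowest count of any autophagy gene in any sample was 254. The first principal component of all genes held 62.8% of the variance and separated the treatments, and the second held 10.3%, with PTH samples 1 and 2 at its ends. Tnfsf11, which encodes the PTH-induced cytokine RANKL and was used as a check of the labels, lay between 0.987 and 1.79 CPM with vehicle and between 115 and 157 CPM with PTH. The summed level of 10 osteoblast markers lay between 95315 and 107425 CPM with vehicle and between 88543 and 127848 CPM with PTH, and that of 10 adipocyte markers between 427 and 497 CPM and between 444 and 506 CPM, respectively. Of these, Runx2, Sp7 and Pparg were downregulated, no marker was upregulated and no marker was at 0 in all samples. The osteoblast sum came mostly from Col1a1, Col1a2 and Sparc, and Sp7 fell within it by a log2 fold change of -1.78. The adipocyte sum came mostly from Lpl, with a mean of 395 CPM with vehicle and 429 CPM with PTH. The next highest adipocyte marker with vehicle was Pparg, at 16.0 CPM, and Adipoq was at 3.48 CPM. Of 10 macrophage markers, Cd14, Lyz2 and Tyrobp were upregulated and none was at 0 in all samples. Their sum lay between 1029 and 1673 CPM with vehicle and between 1612 and 2074 CPM with PTH. The highest vehicle value, that of sample 4, was above the lowest PTH value. Lyz2 made up most of this sum, with a mean of 914 CPM with vehicle and 1417 CPM with PTH. Of 8 endothelial markers, Kdr rose, Tek fell and Emcn was at 0 in all samples, and the sum lay between 8.63 and 9.72 CPM with vehicle and between 8.62 and 10.4 CPM with PTH. The part of such cells in the values below was not tested, and in these bulk samples a change in the number of cells of a type cannot be told apart from a change in RNA per cell.

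PTH changed the expression of many autophagy genes in both directions. Of the 36 genes, 15 were upregulated and 9 were downregulated at a Benjamini-Hochberg adjusted p under 0.05 in edgeR's quasi-likelihood test across 16736 genes, which gave all adjusted p-values below except those of gene ratios. The 24 differentially expressed genes are 66.7% of the set, beside 45.8% of all genes tested and 56.3% of the 9827 genes whose mean lay in the range of the set (8.81 to 399 CPM). By direction, 41.7% of the set rose and 25% fell, beside 23.3% and 22.5% of all genes. Of the 9827 genes in that range, 28.9% rose and 27.4% fell. The 4 PTH and 4 vehicle samples did not overlap for 23 of the 36 genes (all genes, 43.0%). Changes were small. Log2 fold changes ran from -0.54 for Atg4c to 1.02 for Atg101, and their median was 0.04 (all genes, -0.0008). The median absolute log2 fold change was 0.33, beside 0.35 for all genes and 0.28 for the genes in that range. Differential expression with an absolute log2 fold change of at least 0.5 was found for 9 members, beside 27.0% of all genes.

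**Figure D1:**
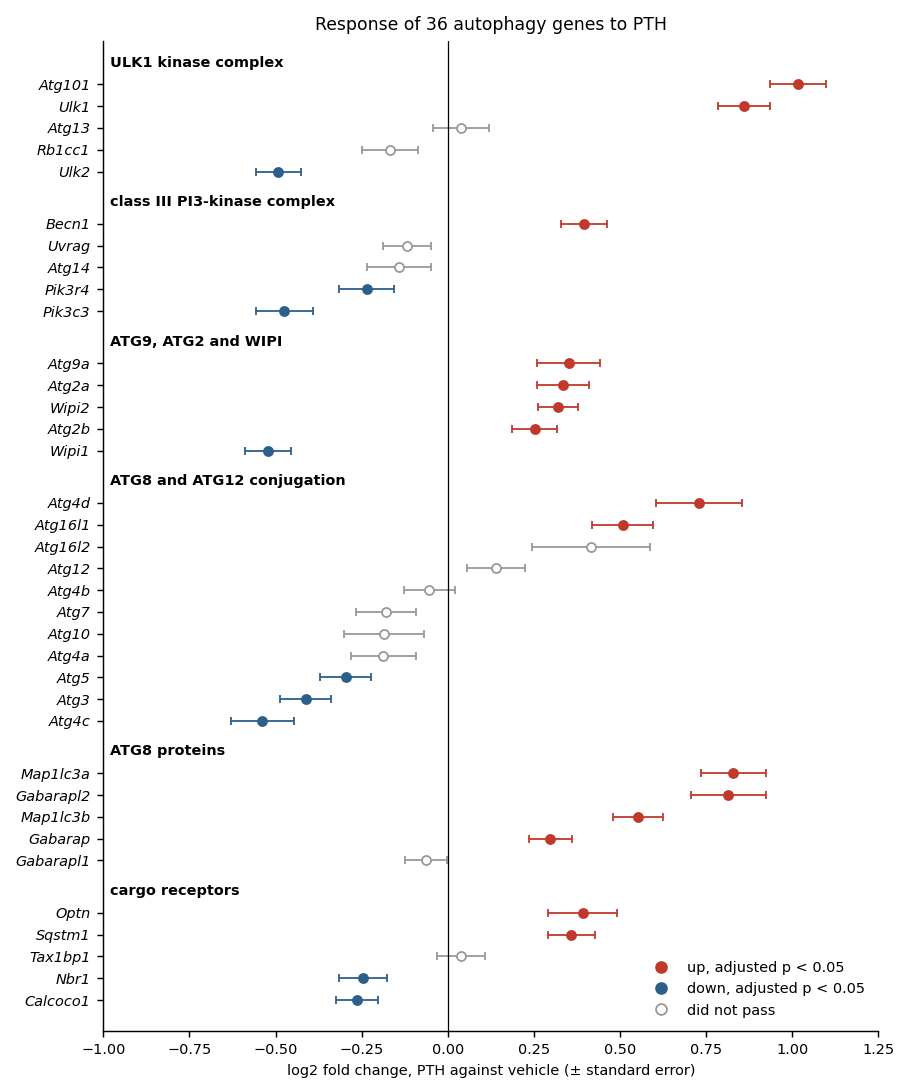
Log2 fold change (PTH against vehicle, horizontal axis) of the 36 autophagy genes, grouped by role. Bars are standard errors derived from edgeR's F statistic. Filled red points rose and filled blue points fell at an adjusted p under 0.05 and open grey points did not pass. Rising and falling genes occur together in 5 of the 6 groups, and the ATG8 proteins hold 4 rising genes and none that fell.

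In the ULK complex, the kinase Ulk1 rose, its paralog Ulk2 fell and the regulatory subunit Atg101 had the largest fold change of the set. Ulk1 (chromosome 5, 110784488 to 110810097, GRCm38, minus strand) lay at 56.2, 66.1, 65.3 and 59.3 CPM in the 4 vehicle samples and at 119, 108, 103 and 118 CPM in the 4 PTH samples. Every PTH sample was above every vehicle sample. The means were 61.7 ± 4.78 and 112 ± 7.89 CPM (SD, n = 4), which differ by 0.86 on the log2 scale (standard error, SE, 0.0754, adjusted p = 1.96e-06).

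Ulk2, which encodes the closely related second kinase (chromosome 11, 61775649 to 61855073, minus strand), lay at 93.7, 95.5, 91.0 and 96.7 CPM with vehicle and at 74.1, 65.1, 65.4 and 63.6 CPM with PTH. Here every PTH sample was below every vehicle sample, with PTH sample 1 the nearest to them. The log2 fold change was -0.49 (SE 0.0649, adjusted p = 6.71e-05). Atg101 (chromosome 15, 101284272 to 101290945, plus strand), whose product stabilizes ATG13 within the complex, lay at 15.5, 15.02, 14.0 and 13.8 CPM with vehicle and at 31.0, 26.6, 31.5 and 28.8 CPM with PTH. Its samples were far apart by treatment, and it was the only gene of the set with a fold change above 2 (2.02-fold, log2 fold change 1.02, SE 0.0821, adjusted p = 9.16e-07). The other subunits did not pass the test, namely Atg13, the adaptor subunit (log2 fold change 0.04), and Rb1cc1, which encodes the scaffold FIP200 (-0.17, adjusted p = 0.112).

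**Figure D2:**
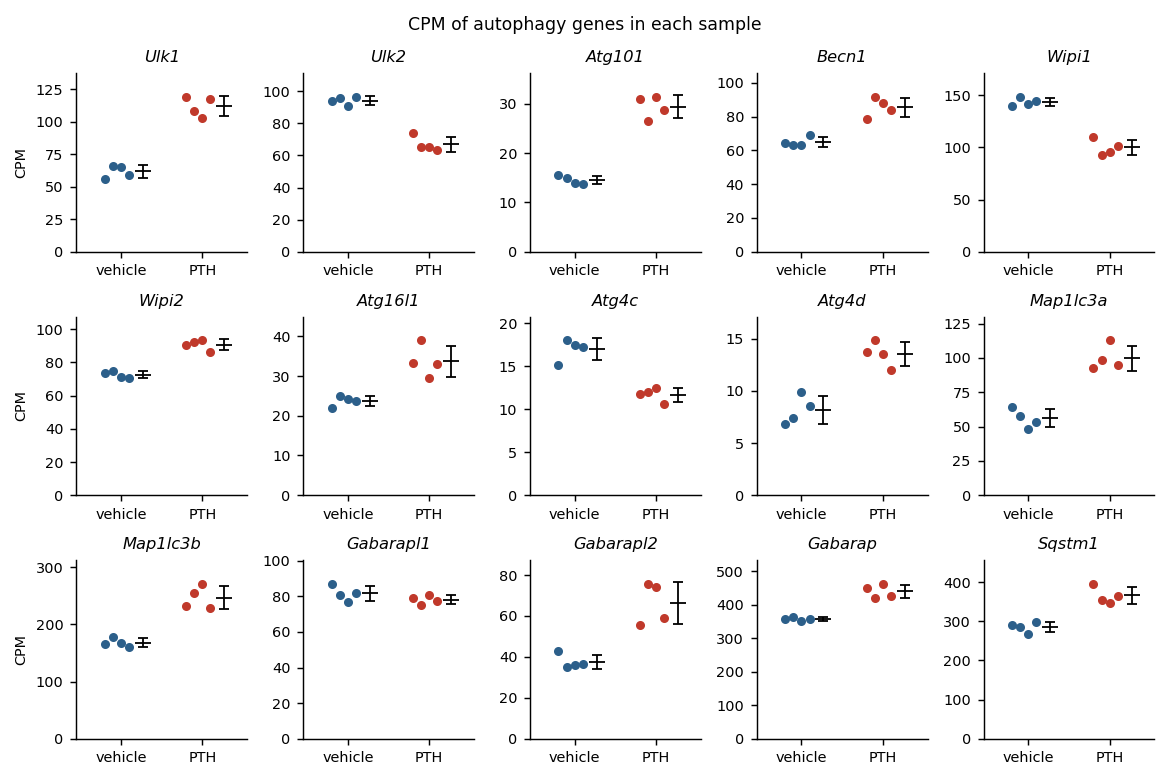
CPM (vertical axes, each from 0) of 15 autophagy genes in the 4 vehicle (blue) and 4 PTH (red) samples, with the mean ± SD of each treatment in black. Samples of the treatments do not overlap for any of the genes shown except Gabarapl1, and Ulk2, Wipi1 and Atg4c are the genes shown that fell.

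The start regions of 5 genes are shown, those of Ulk1 and Ulk2 because the kinases moved in opposite directions and those of Map1lc3b, Gabarap and Gabarapl2 because these ATG8 genes, described below, rose. Map1lc3a, which also rose, was not matched. Each runs 5′ to 3′ on the strand of its gene, from 250 bases before to 50 bases after the start site in RefSeq (GRCm38.p6). Capitals mark TGACG or its reverse complement CGTCA, the core of the cAMP response element, which is the DNA site of CREB, a transcription factor that protein kinase A activates. The windows are chr5:110810032-110810331 (minus strand) for Ulk1, chr11:61855043-61855342 (minus strand) for Ulk2, chr8:121590188-121590487 (plus strand) for Map1lc3b, chr11:69991120-69991419 (plus strand) for Gabarap and chr8:111940453-111940752 (plus strand) for Gabarapl2.
Ulk1: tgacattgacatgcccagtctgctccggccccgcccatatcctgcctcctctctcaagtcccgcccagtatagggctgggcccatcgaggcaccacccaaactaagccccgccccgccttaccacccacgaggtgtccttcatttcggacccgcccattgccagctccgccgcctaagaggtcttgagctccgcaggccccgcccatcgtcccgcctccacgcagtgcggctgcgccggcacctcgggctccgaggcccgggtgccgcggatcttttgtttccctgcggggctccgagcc
Ulk2: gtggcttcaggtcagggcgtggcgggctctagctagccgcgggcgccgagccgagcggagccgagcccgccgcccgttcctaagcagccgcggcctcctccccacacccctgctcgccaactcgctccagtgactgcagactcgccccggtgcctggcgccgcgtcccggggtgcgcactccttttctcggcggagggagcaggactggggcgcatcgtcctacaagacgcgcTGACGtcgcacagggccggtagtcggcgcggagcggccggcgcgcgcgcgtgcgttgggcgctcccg
Map1lc3b: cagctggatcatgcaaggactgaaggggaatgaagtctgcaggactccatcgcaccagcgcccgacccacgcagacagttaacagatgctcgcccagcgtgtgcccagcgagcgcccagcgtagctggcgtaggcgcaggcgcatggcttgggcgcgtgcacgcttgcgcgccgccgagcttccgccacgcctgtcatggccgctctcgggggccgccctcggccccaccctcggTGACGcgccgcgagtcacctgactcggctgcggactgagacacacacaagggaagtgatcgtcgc
Gabarap: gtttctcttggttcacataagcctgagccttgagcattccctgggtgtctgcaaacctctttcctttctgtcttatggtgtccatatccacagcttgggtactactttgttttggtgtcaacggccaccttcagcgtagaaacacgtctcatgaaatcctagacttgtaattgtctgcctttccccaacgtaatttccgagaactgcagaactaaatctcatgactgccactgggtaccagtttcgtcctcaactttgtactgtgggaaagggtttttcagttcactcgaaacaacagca
Gabarapl2: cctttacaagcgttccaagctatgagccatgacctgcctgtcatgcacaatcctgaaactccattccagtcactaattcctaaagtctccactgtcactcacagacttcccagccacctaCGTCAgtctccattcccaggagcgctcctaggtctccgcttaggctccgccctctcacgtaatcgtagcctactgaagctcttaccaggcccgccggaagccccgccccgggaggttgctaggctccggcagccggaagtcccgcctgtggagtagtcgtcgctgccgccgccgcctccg

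Counted with the start site as 0, the first base of the marked letters lay at -17 in Ulk2, at -15 in Map1lc3b and at -130 in Gabarapl2, and the Ulk1 and Gabarap windows held none. The RefSeq starts used for Gabarap, Map1lc3b and Ulk1 lie inside these genes as GENCODE annotates them, so positions hold for the RefSeq start only. Start regions of 30 of the 36 genes were matched in the RefSeq table, and those of Rb1cc1, Becn1, Pik3c3, Atg12, Atg16l1 and Map1lc3a were not. TGACG was found on either strand in 13 of the 30 (43.3%), beside 20.8% of 32851 start regions of the same length. These were 3 of the 12 matched genes that rose, 5 of the 8 that fell, and 5 that did not pass the test. The full element TGACGTCA, which contains TGACG, was found in Atg5 and Atg16l2 (6.67%, all start regions 1.79%). CACGTG, the core of the site bound by the lysosomal and autophagy regulator TFEB, was found in Atg3, Atg5, Atg7 and Atg14 (13.3%, all start regions 7.15%). The shares over all start regions count every region listed, not only those of expressed genes, and were not matched for base composition. They therefore do not show that these letters are particular to autophagy genes. A match describes the letters in these windows and is not a measured binding site.

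In the class III PI3-kinase complex, the scaffold Becn1 (Beclin 1) rose while the catalytic subunit Pik3c3 (VPS34) fell. Becn1 (chromosome 11, 101285952 to 101302286, minus strand) lay at 64.6, 63.1, 63.1 and 69.3 CPM with vehicle and at 78.7, 91.8, 88.0 and 83.6 CPM with PTH. The treatments did not overlap, and the rise was modest, 1.31-fold, with a log2 fold change of 0.39 (SE 0.0667, adjusted p = 4.52e-04). Becn1 shares exon sequence with Cntd1 on the other strand, and the strand setting of the counting is not given in the sources used here, so reads of such partners cannot be told apart. Such a partner was found for 13 of the 36 genes, among them Atg2b (Gskip, log2 fold change 0.26) and Atg16l2 (Fchsd2, -0.90), and 5 genes, Uvrag, Atg12, Atg4a, Map1lc3b and Gabarapl2, resemble other genes over at least 150 bases. Of the other subunits, Pik3c3 fell from 24.8 ± 1.24 to 17.8 ± 1.48 CPM (SD, n = 4, log2 fold change -0.47, adjusted p = 5.46e-04). Pik3r4, the regulatory subunit VPS15, fell slightly (log2 fold change -0.24, adjusted p = 0.0313). This was the weakest call of the set and the only one with overlapping samples, since PTH sample 4 (32.9 CPM) was just above vehicle sample 1 (32.8 CPM). The log2 fold change of Pik3r4 no longer passed without PTH sample 2 or 3 or without vehicle sample 2, 3 or 4 (adjusted p between 0.0660 and 0.101). The 2 subunits that distinguish the forms of the complex did not pass: the log2 fold change was -0.14 for Atg14, which directs it to autophagosome formation, and -0.12 for Uvrag, which belongs to its endosomal form.

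The 5 members of the set at the lipid transfer and lipid-binding step were all differentially expressed, 4 upward and 1 downward. Of all genes 45.8% passed, and of genes in the CPM range of the set 56.3%. The set does not hold every gene of this step. Wipi1, which encodes a reader of the phosphoinositide mark (chromosome 11, 109573331 to 109611967, minus strand), fell. It lay at 139.5, 149, 141 and 145 CPM with vehicle and at 110.0, 92.7, 95.6 and 102 CPM with PTH, with no overlap between treatments. Its log2 fold change was -0.52 (SE 0.0670, adjusted p = 5.31e-05). Wipi2, the family member that recruits the ATG16L1 complex, rose from 72.7 ± 2.10 to 90.7 ± 3.29 CPM (SD, n = 4, log2 fold change 0.32, adjusted p = 6.91e-04). Atg9a, the membrane-spanning lipid scramblase (log2 fold change 0.35), and the lipid transfer genes Atg2a (0.33) and Atg2b (0.25) also rose, all with no overlap between treatments. Within Atg9a, PTH sample 1 (89.8 CPM) stood above the other PTH samples (66.7 to 71.9 CPM). The Atg9a locus was assembled together with Gm29253 and Abcb6, so its counts may be divided among them. Gm29253 also overlaps Atg9a exons on the same strand, had a mean of 9.66 CPM and rose (log2 fold change 1.07, adjusted p = 0.0202), and Abcb6, at 5.89 CPM, did not pass (-0.51, adjusted p = 0.0535).

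The 11 genes of the ATG8 and ATG12 conjugation systems were mixed, with 2 up, 3 down and 6 that did not pass. The share that passed, 45.5%, was near that of all genes, 45.8%, and below that of genes in the CPM range of the set, 56.3%. Atg16l1, whose product places the conjugation enzymes on the membrane (chromosome 1, 87755870 to 87792428, plus strand), lay at 22.0, 24.9, 24.3 and 23.6 CPM with vehicle and at 33.3, 39.1, 29.6 and 32.9 CPM with PTH. All PTH samples were higher, with a log2 fold change of 0.51 (SE 0.0889, adjusted p = 5.85e-04). Its paralog Atg16l2 had 9.996, 9.37, 9.99 and 8.61 CPM with vehicle and 9.81, 18.4, 11.04 and 11.6 CPM with PTH. PTH sample 2 stood alone at the top. The log2 fold change of Atg16l2 was 0.42 and did not pass (adjusted p = 0.0669), and without PTH sample 2 it was 0.20 (adjusted p = 0.157).

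The ATG4 proteases, which prime ATG8 proteins and release them from membranes, went separate ways. Atg4d (chromosome 9, 21265293 to 21277772, plus strand) lay at 6.83, 7.39, 9.85 and 8.53 CPM with vehicle and at 13.7, 14.9, 13.5 and 12.0 CPM with PTH (log2 fold change 0.73, SE 0.126, adjusted p = 5.20e-04). Atg4c (chromosome 4, 99193934 to 99259787, plus strand) lay at 15.1, 18.0, 17.5 and 17.2 CPM with vehicle and at 11.7, 11.9, 12.5 and 10.6 CPM with PTH (log2 fold change -0.54, SE 0.0913, adjusted p = 4.64e-04). Neither gene had overlapping treatments. Atg4c was above Atg4d by CPM in each vehicle sample and below it in each PTH sample. Atg4b, the most active protease on LC3, was at 42.2 ± 2.69 CPM in vehicle samples and at 40.7 ± 2.74 CPM in PTH samples (SD, n = 4) and did not pass (log2 fold change -0.05), nor did Atg4a (log2 fold change -0.19). Atg4d overlaps exons of Kri1 on the other strand, and Kri1, at a mean of 15.2 CPM, also rose (log2 fold change 0.50, adjusted p = 0.0318).

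Among the conjugation enzymes, Atg3, which transfers ATG8 proteins to lipid, fell from between 51.9 and 61.6 CPM to between 40.9 and 43.7 CPM (log2 fold change -0.41, adjusted p = 6.77e-04). Atg5, the partner of ATG12, fell as well (log2 fold change -0.30, adjusted p = 0.00562). Atg7, the activating enzyme of both systems, did not pass (log2 fold change -0.18, adjusted p = 0.112). The same held for Atg10, the enzyme that joins ATG12 to ATG5 (log2 fold change -0.19, adjusted p = 0.215), and for Atg12 itself (log2 fold change 0.14, adjusted p = 0.205).

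Genes of the ATG8 proteins, which coat the growing membrane and bind cargo, rose in 4 of 5 cases and none fell. Of all genes tested, 23.3% rose and 22.5% fell, and of genes in the CPM range of the set, 28.9% and 27.4%. Map1lc3a (LC3A, chromosome 2, 155276297 to 155278073, plus strand) lay at 64.5, 57.8, 48.5 and 53.5 CPM with vehicle and at 92.6, 98.5, 113 and 94.8 CPM with PTH. The treatments were well apart, with a log2 fold change of 0.83 (SE 0.0938, adjusted p = 1.87e-05). Map1lc3b (LC3B, the form most used as a marker of autophagosomes, chromosome 8, 121590361 to 121598760, plus strand) lay at 166, 178, 168 and 159.7 CPM with vehicle and at 232, 254, 271 and 229 CPM with PTH. Every PTH sample was higher, and the log2 fold change was 0.55 (SE 0.0721, adjusted p = 6.14e-05). Map1lc3b overlaps exons of Zcchc14 on the other strand, which had a mean of 182 CPM and rose with PTH (log2 fold change 1.33), and it resembles 4 other genes in sequence, of which Gm6055 (20.7 CPM) was tested and rose (log2 fold change 0.90). How far these reads enter the Map1lc3b value was not tested.

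In the GABARAP branch, Gabarapl2 (GATE-16, chromosome 8, 111940703 to 111953612, plus strand) lay at 42.7, 35.0, 36.03 and 36.6 CPM with vehicle and at 55.6, 75.8, 74.2 and 59.1 CPM with PTH. All PTH samples were higher but they varied, between 55.6 and 75.8 CPM, and the log2 fold change was 0.81 (SE 0.109, adjusted p = 7.28e-05). Gabarapl2 also resembles 3 other genes, Gm3724, Gm5829 and Gm6051, none of which was among the genes tested. Gabarap, the most abundant of the set, rose from 358 ± 5.80 to 439.6 ± 20.0 CPM (SD, n = 4, log2 fold change 0.30, adjusted p = 0.00206). Gabarapl1 lay at 87.1, 80.9, 76.9 and 81.8 CPM with vehicle and at 79.0, 75.3, 80.8 and 77.6 CPM with PTH. Its samples overlapped, and it was the one ATG8 gene that did not pass (log2 fold change -0.06, SE 0.0603, adjusted p = 0.423).

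The cargo receptors, which tie ubiquitinated or other cargo to ATG8 proteins, were divided, with 2 up and 2 down. The share that passed was 80%, beside 45.8% of all genes and 56.3% of genes in the CPM range of the set. Sqstm1, which encodes p62 (chromosome 11, 50199366 to 50210827, minus strand), lay at 290.1, 286, 267 and 299 CPM with vehicle and at 397, 356, 347 and 365 CPM with PTH. All PTH samples were higher, by a log2 fold change of 0.36 (SE 0.0682, adjusted p = 0.00105). Sqstm1 overlaps exons of Mrnip on the other strand, which was not among the genes tested. Optn, encoding the ubiquitin receptor optineurin, rose from between 22.0 and 27.2 CPM to between 29.2 and 38.2 CPM (log2 fold change 0.39, adjusted p = 0.00655). Nbr1, a receptor with a domain structure like that of p62, fell from 138 ± 9.21 to 116 ± 6.82 CPM (SD, n = 4, log2 fold change -0.25, adjusted p = 0.0122). Calcoco1, a receptor for endoplasmic reticulum and Golgi cargo, fell from 80.5 ± 3.79 to 67.0 ± 2.74 CPM (SD, n = 4, log2 fold change -0.26, adjusted p = 0.00390). Tax1bp1 did not pass, at 158 ± 7.90 CPM with vehicle and 162 ± 12.2 CPM with PTH.

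To compare genes with each other, CPM was divided by transcript length in kilobases (CPM per kb), using the principal protein-coding transcript of the GENCODE M21 annotation, so the order depends on that choice. Gabarap had the highest level in both treatments, 265 ± 4.29 CPM per kb with vehicle and 325 ± 14.8 CPM per kb with PTH (SD, n = 4), and Sqstm1 was second at 140.2 ± 6.53 and 179.7 ± 10.5 CPM per kb. With vehicle, Wipi1 (70.1 ± 2.03 CPM per kb) and Map1lc3b (66.4 ± 2.97 CPM per kb) followed with overlapping SDs, as did Map1lc3a (50.5 ± 6.10 CPM per kb) and Tax1bp1 (48.2 ± 2.40 CPM per kb). With PTH, Map1lc3b (97.4 ± 7.90 CPM per kb) and Map1lc3a (89.7 ± 8.24 CPM per kb) came next, again with overlapping SDs, and Wipi1 had moved down to 48.8 ± 3.72 CPM per kb.

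Lower in the order, Atg101 moved from place 19 to place 12 and Ulk1 from 18 to 13, while Ulk2 moved from 13 to 19. Atg14 (3.52 CPM per kb), Atg16l2 (1.47 CPM per kb) and Atg4d (1.37 CPM per kb) were lowest with vehicle, and the SDs of Atg16l2 and Atg4d overlapped in both treatments. The summed level of the 5 ATG8 genes was 449 ± 13.2 CPM per kb with vehicle and 595 ± 31.2 CPM per kb with PTH (SD, n = 4). Gabarap made up 59.0 ± 1.19% of this sum with vehicle and 54.7 ± 1.79% with PTH, and the lowest vehicle share (57.3%, sample 1) was just above the highest PTH share (56.9%, sample 1).

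**Figure D3:**
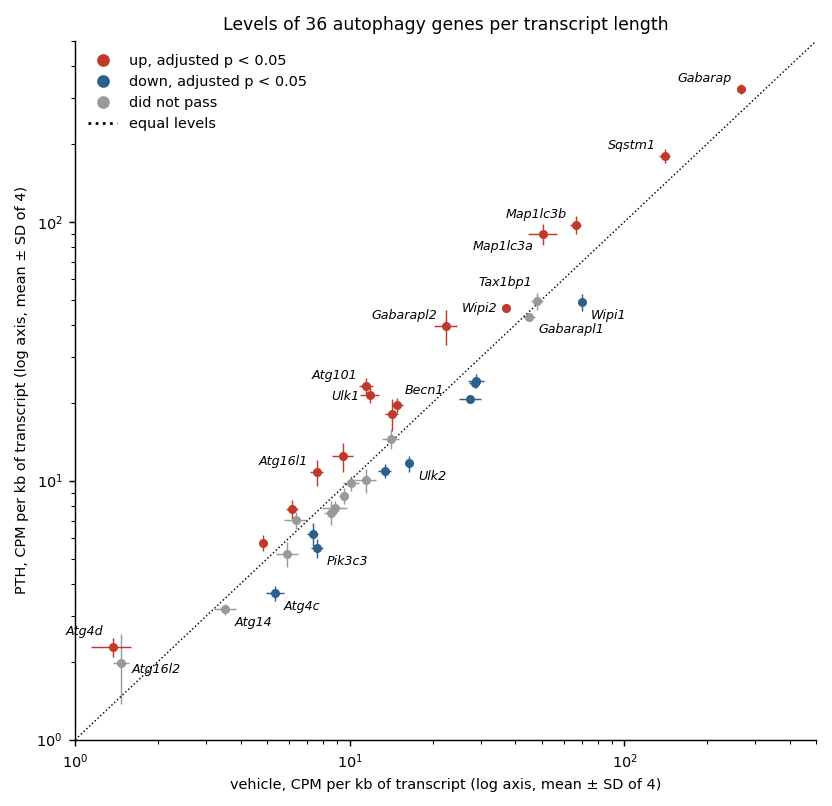
Mean level of each autophagy gene with vehicle (horizontal axis) and PTH (vertical axis), in CPM per kb of transcript on log axes, with SD of 4 samples as bars and equal levels as a dotted line. Gabarap and Sqstm1 are highest in both treatments, and Wipi1, Ulk2 and Atg4c lie below the line.

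Paralogs and related genes were then compared within each sample, since a ratio of 2 genes does not depend on how libraries are scaled. The log2 ratio was compared between treatments by an exact two-sided permutation test over the 70 assignments of 4 and 4 samples, for which the smallest possible p is 0.0286, with adjustment over the 10 pairs compared. The ratio of Ulk1 to Ulk2 changed most. It was -0.74, -0.53, -0.48 and -0.71 on the log2 scale in vehicle samples and 0.69, 0.73, 0.65 and 0.89 in PTH samples. Ulk2 was thus above Ulk1 in each vehicle sample and below it in each PTH sample, by CPM and also per kb, where the ratio of Ulk1 to Ulk2 lay between 0.661 and 0.791 with vehicle and between 1.73 and 2.04 with PTH. The difference was 1.35 (permutation p = 0.0286, adjusted p = 0.0476, n = 4).

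For Atg4c and Atg4d, the log2 ratio was 1.13, 1.27, 0.82 and 1.003 with vehicle and -0.22, -0.31, -0.12 and -0.18 with PTH. The order by CPM was reversed in each sample, although per kb Atg4c stayed above Atg4d (3.31 to 4.53 with vehicle, 1.51 to 1.72 with PTH). For Wipi1 and Wipi2, the ratio was 0.92, 0.99, 0.99 and 1.04 with vehicle and 0.28, 0.0042, 0.03 and 0.24 with PTH, so that both genes lay near the same level with PTH. The difference was -1.27 for Atg4c to Atg4d and -0.84 for Wipi1 to Wipi2. The ratio of Sqstm1 to Nbr1 rose by 0.60, that of Gabarap to Gabarapl1 rose by 0.36 and that of Gabarap to Gabarapl2 fell by 0.51. These 5 pairs had no overlap between treatments and the smallest possible p (exact permutation p = 0.0286, adjusted p = 0.0476, n = 4). For Ulk1 to Ulk2, Atg4c to Atg4d, Wipi1 to Wipi2 and Sqstm1 to Nbr1, the paired genes moved in opposite directions, each without overlap. Separation of these ratios was thus fixed beforehand, so their p-values add no support beyond the calls of the single genes. The adjusted p also depends on how many of the pairs compared reached the smallest p. For the ratios of Gabarap it was under 0.05 only because the pairs fixed beforehand were counted with them.

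Treatments overlapped for the other 4 pairs, which did not pass. The difference was 0.28 for Map1lc3a to Map1lc3b (exact permutation p = 0.0571, adjusted p = 0.0816), 0.08 for Atg2a to Atg2b (adjusted p = 0.107), -0.14 for Atg4a to Atg4b (adjusted p = 0.381) and 0.12 for Atg16l1 to Atg16l2 (adjusted p = 0.457). With 4 samples per treatment, these p-values do not show that the paired genes changed alike.

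**Figure D4:**
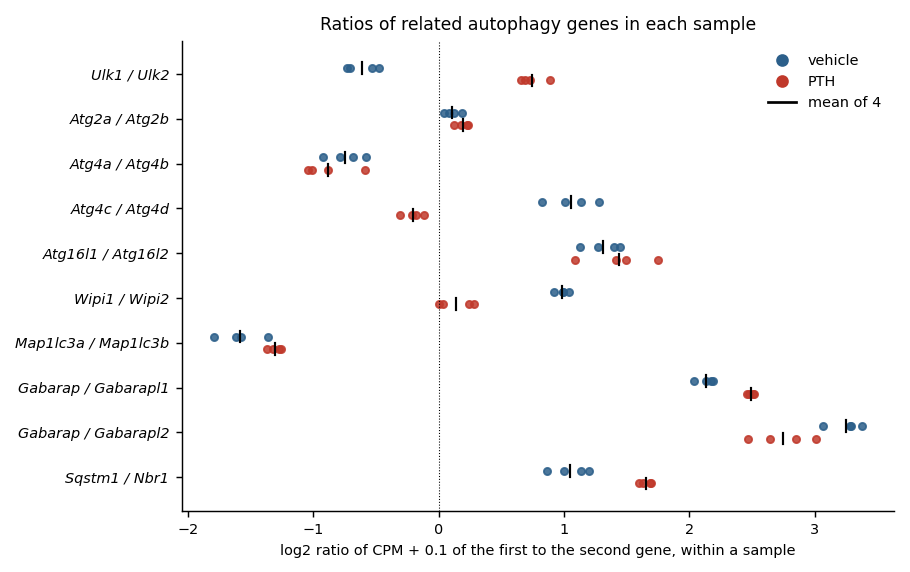
Log2 ratio of CPM + 0.1 (horizontal axis) of 10 pairs of related autophagy genes in the 4 vehicle (blue) and 4 PTH (red) samples, with black bars for means and a dotted line at equal CPM. The ratio of Ulk1 to Ulk2 crosses the line in all samples, from a mean of -0.61 to 0.74, and that of Atg4c to Atg4d from 1.06 to -0.21.

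Beyond the core set, 77 genes that control autophagy or carry out its later and selective steps were listed in 6 groups. All were tested, and 14 rose and 25 fell (50.6%), with a median log2 fold change of -0.07. Of all genes 45.8% passed, and of genes in the CPM range of the set 56.3%. Some related genes lie outside that range. By direction, 18.2% rose and 32.5% fell, beside 23.3% and 22.5% of all genes and 28.9% and 27.4% of genes in that range. By group, in the order described below, 71.4%, 55.6%, 45.5%, 40%, 22.2% and 50% passed. In each group, of the genes that passed, the one that rose most and the one that fell most are given with values. Other genes were named after their values were seen. Both the largest rise and the largest fall were in the group of mTORC1, AMPK and TSC genes, the nutrient and energy sensors upstream of ULK1, with 4 of 21 up and 11 down.

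Ddit4 (REDD1), an inhibitor of mTORC1, lay at 39.0, 33.1, 33.97 and 32.0 CPM with vehicle and at 188, 167, 164 and 174 CPM with PTH (log2 fold change 2.33, SE 0.0792, adjusted p = 3.61e-10). Its paralog Ddit4l (REDD2) lay at 33.6, 30.7, 31.1 and 28.5 CPM with vehicle and at 9.91, 11.3, 12.4 and 11.1 CPM with PTH (log2 fold change -1.47, SE 0.0899, adjusted p = 7.44e-08). The treatments were far apart for both genes, in opposite directions. Stk11 (LKB1), the kinase that activates AMPK, rose (log2 fold change 1.35), as did the AMPK subunit Prkag2 (0.52) and Rheb (0.41), the GTPase that activates mTORC1. Those that fell included the AMPK subunits Prkab2 (-1.32), Prkaa2 (-0.67) and Prkab1 (-0.23) and the mTORC1 inhibitors Sesn1 (-1.16), Sesn3 (-0.58), Deptor (-0.49), Sesn2 (-0.48) and Akt1s1 (-0.19). The mTORC1 subunit Mlst8 (-0.33) and the TSC subunit Tbc1d7 (-0.49) also fell, whereas the kinase Mtor had a log2 fold change of 0.16 and did not pass. Nor did the mTORC1 subunit Rptor (-0.13), the TSC subunits Tsc1 (-0.16) and Tsc2 (-0.0016) or the AMPK subunits Prkaa1 (-0.22) and Prkag1 (-0.03).

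Of 9 transcription factors linked to autophagy genes, 2 rose and 3 fell. Foxo1, a forkhead factor under insulin control, lay at 34.6, 35.5, 40.7 and 43.9 CPM with vehicle and at 84.9, 63.3, 69.4 and 87.5 CPM with PTH (log2 fold change 0.98, adjusted p = 2.31e-05). Tfeb lay at 11.4, 11.5, 11.5 and 12.6 CPM with vehicle and at 7.65, 6.92, 7.67 and 6.25 CPM with PTH (log2 fold change -0.72, adjusted p = 1.33e-04). Neither gene had overlapping treatments. Zkscan3, a repressor of autophagy genes, also rose (0.69), and Mitf (-0.54) and Foxo3 (-0.22) fell.

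Of 11 accessory initiation factors, 3 rose and 2 fell. Rubcn (Rubicon), an inhibitor of the class III PI3-kinase complex, lay at 40.1, 35.4, 39.0 and 38.1 CPM with vehicle and at 12.9, 14.4, 13.4 and 15.4 CPM with PTH. Its level in each PTH sample was below that in every vehicle sample (log2 fold change -1.44, SE 0.0795, adjusted p = 2.96e-08). Wdr45b, a relative of the WIPI proteins, rose most (log2 fold change 0.37, adjusted p = 4.77e-04), with smaller rises of Tbk1 (0.22) and Sh3glb1 (0.19) and a fall of Zfyve1 (-0.39).

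Of 15 genes for fusion of the autophagosome with the lysosome, 2 rose and 4 fell. The SNARE gene Vamp7 rose most (log2 fold change 0.53, adjusted p = 0.00264), from between 46.7 and 48.1 CPM to between 53.0 and 80.3 CPM. The autophagosomal SNARE gene Stx17 fell most (log2 fold change -0.52, adjusted p = 1.55e-04), from between 31.4 and 38.7 CPM to between 24.2 and 25.1 CPM. Of the tethering subunits, Vps18 rose (0.30) and Vps33a (-0.40), Vps41 (-0.26) and Vps11 (-0.25) fell.

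Mitophagy genes had the smallest median absolute log2 fold change of the 6 groups (0.07). Of 9, Pink1, the kinase that marks damaged mitochondria, rose (log2 fold change 0.27, adjusted p = 0.0281) and the deubiquitinase Usp30, which opposes it, fell (-0.28, adjusted p = 0.0251). Both calls were lost under several alternative settings, and the samples of Pink1 overlapped (105 to 126 CPM with vehicle, 119 to 149 CPM with PTH). Of 12 ER-phagy and other selective receptors, 2 rose and 4 fell. Retreg1, listed in the table as Fam134b and encoding a receptor for turnover of the endoplasmic reticulum, lay at 40.4, 41.5, 37.2 and 32.5 CPM with vehicle and at 138, 102, 112 and 123 CPM with PTH (log2 fold change 1.65, SE 0.103, adjusted p = 9.84e-08). The glycogen receptor Stbd1 fell most, from between 6.13 and 7.09 CPM to between 2.40 and 3.47 CPM (log2 fold change -1.15, adjusted p = 6.16e-05). Retreg1 and Stbd1 thus lay apart by treatment in opposite directions, and changes of the others that passed were small, from -0.40 for Atl3 to 0.16 for Tollip.

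**Figure D5:**
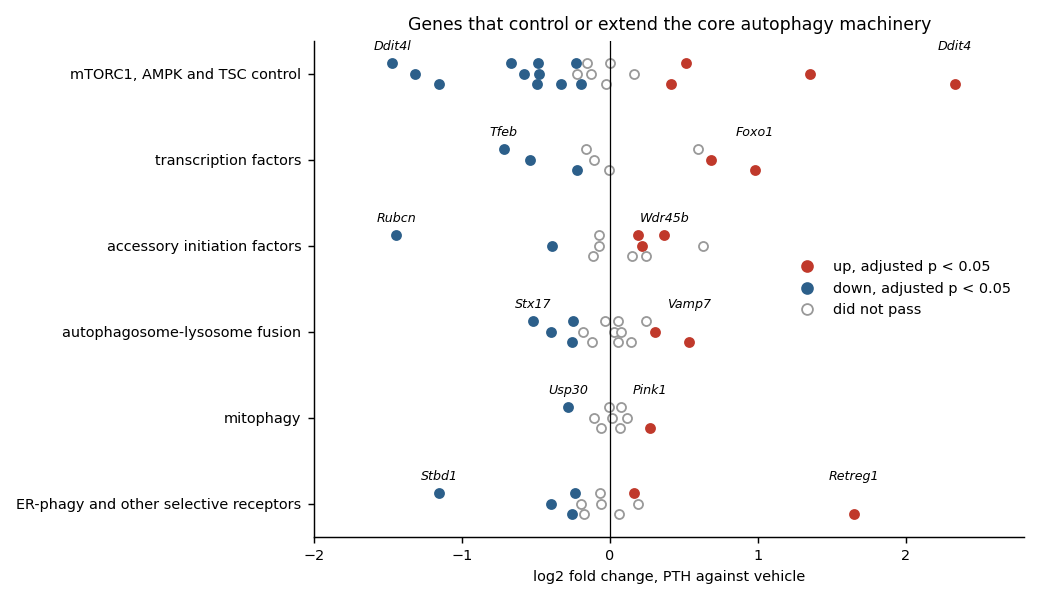
Log2 fold change (PTH against vehicle, horizontal axis) of 77 genes that control or extend autophagy, in 6 groups. Filled red points rose and filled blue points fell at an adjusted p under 0.05, and open grey points did not pass. In each group, of the genes that passed, the one that rose most and the one that fell most are named. Ddit4 (2.33) and Retreg1 (1.65) are the highest, and Ddit4l (-1.47) and Rubcn (-1.44) the lowest.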

How the data were processed

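RNA was sequenced from 8 samples of calvarial osteoblasts, 4 treated with PTH and 4 with vehicle, and grouped by sample title. Libraries were made from poly(A) RNA, and the authors aligned reads to GRCm38 (mm10 in the submitters' processing notes) with HISAT2, assembled transcripts with StringTie and deposited whole-number counts per gene and sample, without normalization. Annotation version and strand setting are not given in the sources used here. The authors compared treatments with DESeq2.

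Counts were analysed in R 4.3.3 with edgeR 4.0.16. Of 47706 rows, 16736 passed filterByExpr (minimum count 10, minimum total 15). Treatments were compared by edgeR's quasi-likelihood F-test (two-sided, after TMM scaling), with Benjamini-Hochberg adjustment over all 16736 genes, a threshold of 0.05 and no minimum fold change. Total counts of 33605610 to 56090654 per sample limit mainly genes with few counts. The standard error of a log2 fold change was derived as its absolute value divided by the square root of the F statistic. CPM uses TMM-scaled library sizes. Positions and transcript lengths come from GENCODE M21, start regions from RefSeq. Ratios of gene pairs, log2 of CPM + 0.1, were compared by exact permutation in SciPy 1.17.1. Related sequences were found with blastn 2.17.0 (at least 150 bases at 95% identity). Python 3.11.15, pandas 2.3.3, NumPy 2.4.6 and matplotlib 3.10.9 were also used.

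On simulated counts for 16736 genes, edgeR recovered 63 of 100 genes changed by 1 on the log2 scale and 93 of 100 changed by 2, with 11 false calls. DESeq2 1.42.0 recovered 70 and 94, with 38 false calls. The changed genes were drawn at random from all 16736, whatever their counts, and no other gene was changed. In the data 45.8% of genes passed. The simulated figures therefore do not give the recovery or the false calls to be found among the autophagy genes.

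The autophagy genes, the related lists, the markers and the gene pairs were chosen with earlier results of these data known. All 36 genes are named, those that passed with an absolute log2 fold change of at least 0.5 and Ulk1, Becn1, Map1lc3b, Gabarapl1 and Sqstm1 with the value of each sample. Ulk2 and Atg16l2 were given likewise after their values were seen. Of each related list the genes that passed with the largest rise and fall are given. The alternatives were DESeq2, no filter on low counts, DESeq2's size factors in place of TMM, the sample number as a block, halved counts, counts summed by symbol, offsets for transcript length and GC content, leaving out each sample in turn, and a pseudocount of 1 for ratios. The sequencing reads and the study's measurements other than RNA were not analysed here.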

Additional observations from a re-analysis of the deposited data

Results flagged for a closer look

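Among 72 groups of 4 samples (the 36 autophagy genes in each treatment), 1 held a sample far from the others by Dixon's criterion, under which chance alone marks about 1 in 20 groups. Ulk2 lay at 74.1 CPM in PTH sample 1 and between 63.6 and 65.4 CPM in the other PTH samples, a gap of 0.83 of the group's range, just past the critical value for 4 samples. The value of PTH sample 1 was still below all 4 vehicle samples (91.0 to 96.7 CPM).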

How the results depend on the processing

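Across 16 alternative settings, 15 to 16 autophagy genes rose and 8 to 10 fell, and 23 of the 24 genes that passed did so under every one of them. The exception was Pik3r4: the log2 fold change of Pik3r4 did not pass with a transcript length offset (adjusted p = 0.112) or when 1 of 5 samples was left out. With the replicate number as a block, 15 genes rose and 8 fell, Pik3r4 (adjusted p = 0.0506) being the one lost. Of the related genes, 10 rose and 21 fell under the block, and Pink1 was among those lost. Deviations of same-numbered samples correlated between -0.041 and 0.027, which gives no sign that the numbers pair the samples but cannot exclude it. Over the settings, 10 to 17 related genes rose and 20 to 27 fell. Pink1 was lost in 7 settings and Usp30 in 5.

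The median log2 fold change of autophagy genes, 0.04, moved to 0.0040 with no filter on low counts, to 0.13 with a transcript length offset and to between -0.0116 and 0.0748 when 1 sample was left out. Reversals were seen only in genes that did not pass. These were the log2 fold change of Atg4b, 0.03 with the length offset, the log2 fold change of Atg13, -0.0063 to 0.0874 when 1 sample was left out, and the log2 fold change of Tax1bp1, -0.0168 to 0.0773 likewise. The log2 fold change of Atg16l2 fell to 0.20 (adjusted p = 0.157) without PTH sample 2, whereas it passed with the length offset (adjusted p = 0.037) and without PTH sample 1 (0.0193). Likewise, Rb1cc1 passed without vehicle sample 1 (0.0182) and Atg4a without PTH sample 3 (0.0417). Depth limits these genes little, whereas 4 samples per treatment limit the gene ratios. The cause of these shifts was not tested.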
